A study of Mus musculus with 6 samples.

Results

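Capillary endothelial nuclei of subcutaneous fat are described here. A nucleus belonged to the class when at least 500 genes were detected in it, mitochondrial UMIs made up no more than 5% of its total, and at least 3 of 10 endothelial genes were detected (Pecam1, Cdh5, Ptprb, Flt1, Cyyr1, Emcn, Kdr, Tek, Egfl7 and Adgrl4, together called the endothelial gate). In addition, at least 2 of the 5 capillary genes Car4, Ccdc85a, Gpihbp1, Ablim3 and Btnl9 had to be detected, more of them than of the 5 larger-vessel genes Cytl1, Mgp, Eln, Clu and Vwf, with fewer than 3 of the lymphatic genes Prox1, Mmrn1, Reln and Flt4. A gene was detected when it had 1 UMI or more. The members were thus chosen by measured values, and 3938 of 61496 nuclei that passed the gene and mitochondrial limits met the rule.

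Capillaries are the exchange vessels of adipose tissue. Their endothelium holds lipoprotein lipase on the luminal surface through Gpihbp1, where triglyceride-rich lipoproteins are hydrolysed, and takes up the released fatty acids through Cd36 and intracellular fatty acid binding proteins for transfer to adipocytes. The nuclear receptor Pparg and the Meox2 and Tcf15 pair of transcription factors are known to drive this lipid transport programme in endothelium, and VEGF signals through Kdr, Flt1 and Nrp1 maintain the vessels.

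Single-nucleus RNA was measured in 3 flox control mice (GPSM1f/f, carrying a floxed Gpsm1 gene) and 3 Treg knockout mice (GPSM1ΔTreg, which lack Gpsm1 in regulatory T cells), with 1 library per mouse. All 6 mice received high-fat food for 12 weeks, starting at the age of 7 weeks, so the floxed allele and the obesogenic diet are common to both groups. The driver of the deletion is not given in the sources used here. Because the deletion lies in regulatory T cells, Gpsm1 in endothelial nuclei gives no check of the genotype: in the capillary nuclei it was 32.8, 37.7 and 34.7 CPM in flox controls 1 to 3 and 43.7, 45.1 and 29.8 CPM in knockouts 1 to 3, where CPM is UMIs per 1000000 UMIs summed over the class in a library. The groups overlapped for Gpsm1.

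The libraries held 9918 to 10700 nuclei within the limits, with a median of 2119 to 3337 UMIs each, and any pair of libraries shared 24 to 44 barcodes. Outside the endothelial gate the adipocyte gene Adipoq was at 106 to 162 CPM and Plin1 at 488 to 625 CPM. The knockout libraries stood apart in their lymphocytes: nuclei with 3 or more B or T cell markers made up 54.8%, 17.4% and 36.1% of knockouts 1 to 3, against 4.10%, 2.41% and 10.0% of flox controls 1 to 3.

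The 6 libraries contributed 863, 839 and 1040 capillary nuclei in flox controls 1 to 3 and 257, 511 and 428 in knockouts 1 to 3. Their summed UMIs ran from 778445 in knockout 1 to 3578411 in flox control 3, and the median nucleus had 1758 to 2679 UMIs and 1118 to 1542 genes. Some members also carried RNA of other cells: 36.6%, 26.9% and 41.3% of members in flox controls 1 to 3 and 29.6%, 20.2% and 43.5% in knockouts 1 to 3 had 3 or more markers of adipocytes, progenitors, macrophages, mural cells, B cells or T cells. Scrublet, a doublet caller, gave 13.8% to 23.6% of members a high score. For this reason results between genotypes are given both for all members and for the members without such markers, called the stricter members.

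The rule set the following values, which are a description. Exactly 2 capillary genes were detected in 778 members, 3 in 1176, 4 in 1264 and all 5 in 720, with median totals of 1797, 2096, 2339 and 2808 UMIs, so members with more capillary genes were also more deeply sampled. No larger-vessel gene was detected in 2662 members. Just inside the limit stood 520 nuclei with 2 capillary genes and no larger-vessel gene and 258 with 2 and 1. Just outside stood 360 gated nuclei with 1 capillary gene and no larger-vessel gene (median 1497 UMIs), 120 with 2 of each (median 2996.5 UMIs), and 120 nuclei with 2 or more capillary genes but only 2 genes of the gate. The lymphatic limit removed 33 nuclei.

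Among the capillary genes of the rule, Ablim3, an actin-binding LIM protein, was detected in 88.3% to 93.4% of members over the libraries, Ccdc85a in 69.5% to 81.6%, Gpihbp1, the luminal anchor of lipoprotein lipase, in 68.5% to 78.7%, Btnl9, a butyrophilin-like membrane protein, in 64.2% to 71.8%, and Car4, a membrane-anchored carbonic anhydrase, in 37.2% to 45.7%. Endothelial genes that the rule did not use were present as well. The tight junction gene Cldn5 was detected in 80.8% to 90.6% of members and in 1.44% to 8.49% of nuclei outside the gate, and Shank3, a scaffold protein, in 80.1% to 86.7% and 0.867% to 5.28%. The median nucleus outside the gate had 2094 to 3579 UMIs in the 6 libraries. Prox1, the master regulator of lymphatic identity and a gene of the lymphatic limit, was detected in 0.116% to 1.17%.

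Capillary genes outside the rule showed the lipid transport programme. Cd36, the fatty acid translocase, was detected in 98.4% to 99.5% of members and 35.3% to 78.9% of nuclei outside the gate. Its level in members was 6582, 5992 and 5561 CPM in flox controls 1 to 3 and 6179, 7011 and 5199 CPM in knockouts 1 to 3. In the larger-vessel nuclei, which pass the same gate with at least 2 larger-vessel genes and more of these than of capillary genes, Cd36 ran from 710.0 to 1589.9 CPM, so no capillary library overlapped a larger-vessel library. Fabp4, the adipose fatty acid binding protein, was 8128, 5383 and 4797 CPM in flox controls 1 to 3 and 9263, 6475 and 4056 CPM in knockouts 1 to 3. Fabp4 was 1875 to 4313 CPM in larger-vessel nuclei, and these libraries reached the lowest capillary one. The remaining genes of this group, Fabp5, Pparg and the glycerol channel Aqp7, had means over the 6 libraries of 327, 1957 and 321 CPM in capillary nuclei and 68.9, 445 and 48 CPM in larger-vessel nuclei. These class differences are given with no test, since the classes were cut from the same nuclei, and Cd36, Fabp4 and Pparg are also abundant outside the gate, where the means were 1489, 2502 and 1138 CPM.

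Transcription factors of the programme were present at lower UMI levels. Tcf15 was detected in 12.9% to 21.0% of members and in 0.136% to 0.73% of nuclei outside the gate, and its mean level was 64.5 CPM in capillary, 15.9 CPM in larger-vessel and 0.821 CPM in ungated nuclei. Meox2, its partner, was 253 CPM in capillary and 172 CPM in larger-vessel nuclei. Not every gene known from capillaries separated the classes: the water channel Aqp1 was 298 to 685 CPM in capillary and 243 to 526 CPM in larger-vessel nuclei, and the ranges overlapped. Rgcc, a cell cycle regulator often used as a capillary marker, was 464 CPM in members and 456 CPM outside the gate. Lpl, the lipase that Gpihbp1 carries, had a mean of 803 CPM in members against 1048 CPM outside the gate and 546 CPM in the stricter members.

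Of the VEGF receptor genes, Nrp1 and Kdr did not overlap in CPM between the capillary and larger-vessel libraries. Nrp1, the neuropilin co-receptor, was 706 to 1059 CPM in capillary nuclei, 255 to 439 CPM in larger-vessel nuclei and 0 to 85.6 CPM in lymphatic nuclei. Kdr, the main VEGF receptor, was 225 to 401 CPM in capillary and 25.7 to 98 CPM in larger-vessel nuclei, but Kdr is a gene of the gate. Flt1 and Flt4, both also genes of the rule, were compared by detection, and at full depth both overlapped. Flt1 was detected in 75.3% to 83.3% of capillary and 57.3% to 76.1% of larger-vessel nuclei. Flt4 was detected in 5.87% to 10.2% and 4.32% to 16%. With each nucleus thinned to the same number of UMIs, Flt1 did not overlap. It was then detected in 53.4% to 69.5% of capillary and 34.2% to 48.6% of larger-vessel nuclei. Flt4 still overlapped, at 3.13% to 4.66% and 2.22% to 6.85%. Receptor and transporter genes of the adenosine pathway were also on the capillary side. Adora2a, an adenosine receptor, was 76.5, 52.5 and 72.9 CPM in flox controls 1 to 3 and 86.1, 64 and 53.9 CPM in knockouts 1 to 3, with 0 to 14.6 CPM in larger-vessel nuclei. Slc28a2, a nucleoside transporter, had a mean of 273 CPM in capillary and 26.1 CPM in larger-vessel nuclei. Nt5e, which encodes CD73, ranged from 0 to 22.4 CPM in members and was near the level of nuclei outside the gate, 4.53 to 21.1 CPM.

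The genes with the largest capillary to larger-vessel ratios were Lnx1, Lrrc36, Ephb1, Coro6, Cd300lg, Slc28a2, Abca8b, Adora2a, Vwa3a, Rbp7, Kit, Mboat2, Osbpl6, Cxcl9 and Col28a1, each higher in the capillary nuclei of 6 of 6 libraries. The mean of Lnx1, an E3 ubiquitin ligase, was 766 against 62.3 CPM, a ratio of 12.3. Ephb1, a receptor for B-type ephrins, was at 77.4 against 3.36 CPM, Kit, the stem cell factor receptor, at 71.7 against 5.27 CPM, and Cd300lg, an endothelial immunoglobulin-family receptor, at 531 against 52.1 CPM. Larger-vessel nuclei led in arterial genes. Bmx, a kinase of arterial endothelium, was at 456 CPM there and 17.7 CPM in capillary nuclei, Gja5, which encodes connexin 40, at 333 and 18.6 CPM, and the heparan sulfatase Sulf1 at 1178 and 79.9 CPM. The lymphatic class held 125 nuclei, 4 in each of flox controls 2 and 3. In them Lyve1, a hyaluronan receptor of lymphatic vessels, had a mean of 608 CPM, against 5.52 CPM in capillary nuclei, while Dach1, a transcription factor that led the opposite list with Lnx1, Lmo7, Mecom and Nrp1, was at 1325 CPM in capillary nuclei and had no UMI in lymphatic nuclei of any library.

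**Figure D1:**
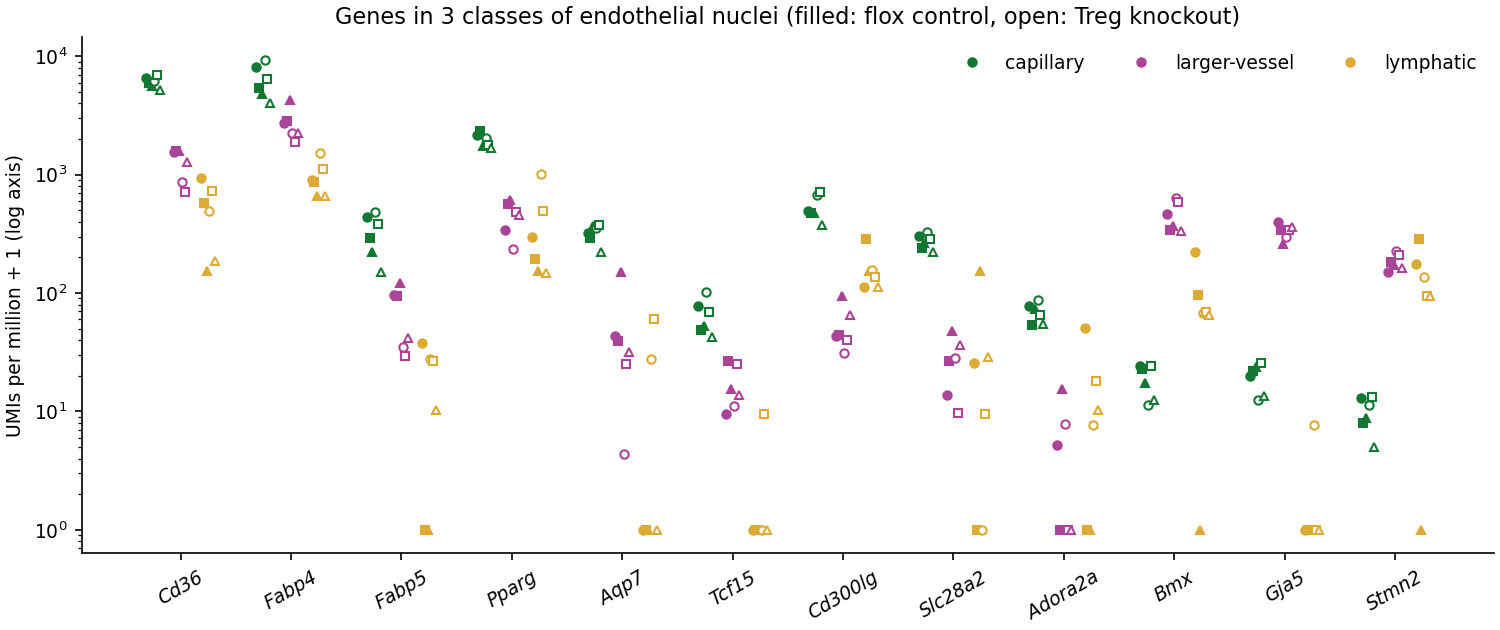
Levels of 12 genes (horizontal axis) as UMIs per 1000000 plus 1 on a log axis, in capillary, larger-vessel and lymphatic nuclei. Each point is 1 library, filled for flox control and open for Treg knockout, with circles, squares and triangles for replicates 1, 2 and 3. Cd36, Pparg, Cd300lg, Slc28a2 and Adora2a stood higher in every capillary than in every larger-vessel library, and Bmx, Gja5 and Stmn2 the other way round.

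The capillary nuclei varied among themselves along the arterial to venous axis. To look at this at equal depth, the stricter members were thinned to 1000 UMIs each and split by a list of arterial genes (Sema3g, Gja5, Gja4, Hey1, Efnb2, Sox17, Fbln5, Bmx, Dll4, Unc5b and Stmn2). At least 2 of the 11 genes were detected in 23.5%, 28.7% and 20.7% of nuclei in flox controls 1 to 3 and in 28.2%, 22.0% and 24.3% in knockouts 1 to 3. Mecom was left out of this list because most members carry it. The 48 to 156 nuclei a library with arterial genes also had higher levels of genes outside the list. Col8a1, a short-chain collagen, was 647 against 34.7 CPM in nuclei with 2 or more arterial genes against those with none, Vegfc, a VEGF family ligand, 286 against 40.5 CPM, and the sialyltransferase St6galnac3 1835 against 381 CPM. Thsd7b and the actin-binding protein Nebl were also among the 12 genes with the largest ratios, 489.8 against 12.7 CPM and 232 against 7.41 CPM. Each of these 5 genes was higher in 6 of 6 libraries, but only genes with the same direction in 6 of 6 libraries were ranked. This agreement was thus a condition of entry, also in the splits below. The split is a range within the class and not a cell type, and it is described with no test.

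Nuclei without an arterial gene led in another set. Aqp1 was 175 against 877 CPM in nuclei with 2 or more arterial genes against those with none, Kirrel3, a nephrin-like adhesion protein, 152 against 926 CPM, Aplnr, the apelin receptor, 33.5 against 145 CPM, and Lhx6 8.74 against 68.4 CPM. All were lower with arterial genes in 6 of 6 libraries, as the ranking required. The venous end was thinner. At 1000 UMIs, 5 to 25 nuclei a library had 2 or more of the 8 venous genes Nr2f2, Ephb4, Vcam1, Selp, Ackr1, Lrg1, Il1r1 and Plvap, and no more than 7 nuclei of any library had 2 or more of both lists. In the venous nuclei Kirrel3 was 2887 against 384 CPM against nuclei with no venous gene, Thsd7a 1550.3 against 241 CPM, Ehd4 469 against 43.9 CPM and Lhx6 210.1 against 25.9 CPM. Each was higher in 6 of 6 libraries, as the ranking required. The venous levels rest on few UMIs, with 5 such nuclei in knockout 1 at 1000 UMIs each. Kirrel3 and Lhx6 were on the non-arterial side of the first split and the venous side of the second. A further split by 12 interferon-response genes marked 15.9% to 29.4% of the stricter members, in which Herc6, Rnf213 and Nlrc5, outside the list, were 575 against 171 CPM, 486 against 163 CPM and 138 against 53.8 CPM against nuclei with no gene of the list.

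**Figure D2:**
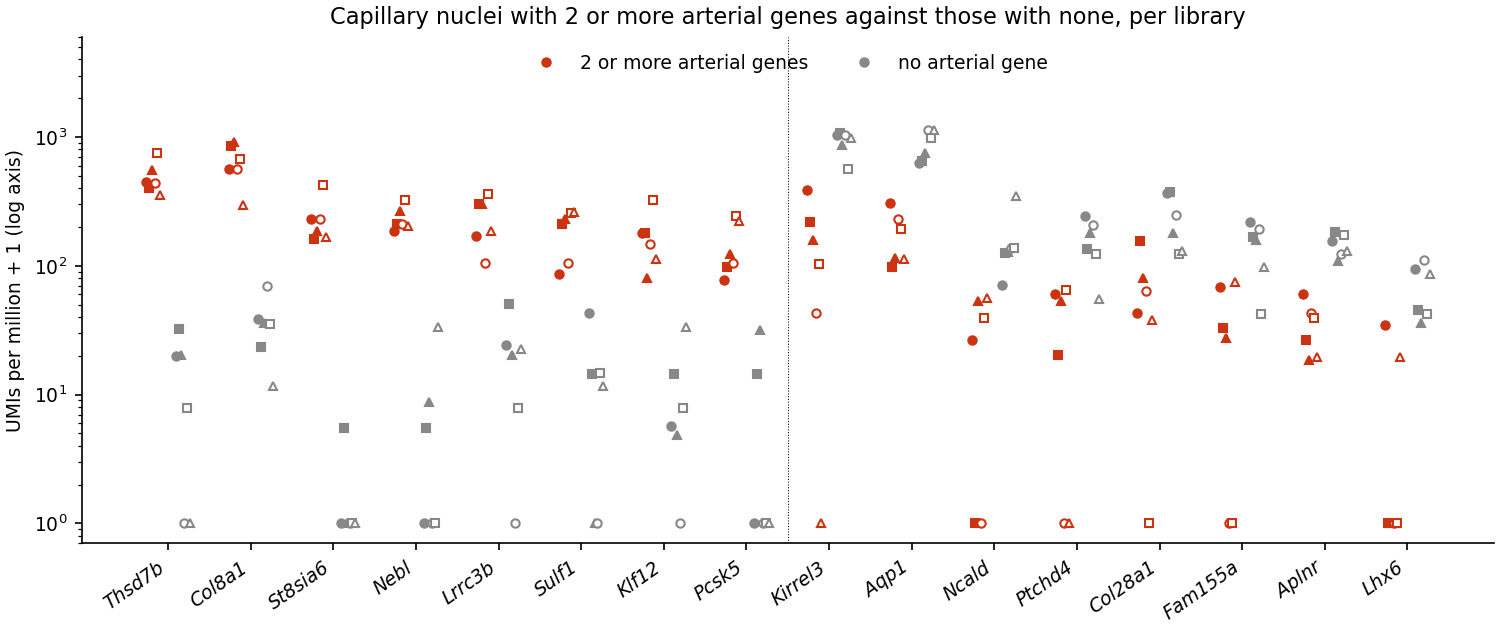
Levels of 16 genes as UMIs per 1000000 plus 1 on a log axis, in stricter capillary nuclei thinned to 1000 UMIs with 2 or more arterial genes (red) and with none (grey). Each point is 1 library, filled for flox control and open for Treg knockout, with circles, squares and triangles for replicates 1, 2 and 3. The 8 genes left of the dotted line were higher in the red nuclei of 6 of 6 libraries, and the 8 on the right lower. Only genes with the same direction in 6 of 6 libraries were eligible.

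Capillary nuclei formed a smaller share of the knockout libraries. They were 8.52%, 8.46% and 10.2% of kept nuclei in flox controls 1 to 3 and 2.4%, 4.97% and 4.18% in knockouts 1 to 3, for means of 9.05 ± 0.977% and 3.85 ± 1.31% (SD, n = 3 each), a ratio of 2.35. The groups did not overlap (exact two-sided permutation test, p = 0.1, the smallest that 3 against 3 allows). The counting error of a library was smaller than this gap, with exact 95% binomial intervals of 7.98% to 9.08% in flox control 1 and 2.12% to 2.71% in knockout 1. A share of all nuclei moves with every other cell type. With nuclei that had 3 or more B or T cell markers taken out of the denominator only, the means were 9.62 ± 1.47% and 5.96 ± 0.619%. The ratio was 1.62, again without overlap (exact permutation p = 0.1). Members with such markers stayed in the numerator, so this value is not a share of the remaining nuclei. Those with 3 or more B cell markers were 12, 5 and 77 in flox controls 1 to 3 and 30, 26 and 115 in knockouts 1 to 3.

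Within the endothelium the comparison was less clear. Of all gated nuclei, 70.2%, 75.4% and 58.0% were capillary in flox controls 1 to 3 and 59.5%, 62.5% and 60.9% in knockouts 1 to 3, and the groups overlapped (67.9 ± 8.96% against 61.0 ± 1.53%, exact permutation p = 0.4). They did not overlap at 1000 UMIs a nucleus (62.8% against 56.1%), with 5 or more genes of the gate (75.2% against 67.4%) or with 1000 or more genes (69.0% against 58.1%), each with an exact permutation p of 0.1. They overlapped with 3 or more capillary genes (54.0% against 50.7%), without high Scrublet scores (67.4% against 61.0%) and without lymphatic nuclei (68.4% against 64.4%). The exact permutation p was 0.7, 0.4 and 0.5. Stricter members over all gated nuclei also overlapped (44.6% against 42.1%, exact permutation p = 0.8). With other markers removed from the denominator too, chosen after the data were seen, the groups did not overlap (74.2% against 61.4%, exact permutation p = 0.1). Under the rule itself flox control 3 was the low one, and it held 564 gated nuclei of none of the 3 vessel classes, against 67 to 166 in the other libraries. Without it the means were 72.8% and 61.0% (exact permutation p = 0.2, the smallest possible with 2 against 3). With larger-vessel and capillary nuclei alone as the denominator, capillary nuclei made up 82.7%, 85.8% and 84.8% in flox controls 1 to 3 and 77.4%, 76.8% and 78.0% in knockouts 1 to 3. These groups did not overlap (84.5 ± 1.56% against 77.4 ± 0.559%, exact permutation p = 0.1), and the same held for the stricter members, with means of 85.8% and 75.8% (exact permutation p = 0.1). The denominator of capillary plus larger-vessel nuclei was chosen after the data were seen. The larger-vessel share of kept nuclei was 1.67 ± 0.23% against 1.13 ± 0.401% (exact permutation p = 0.2).

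**Figure D3:**
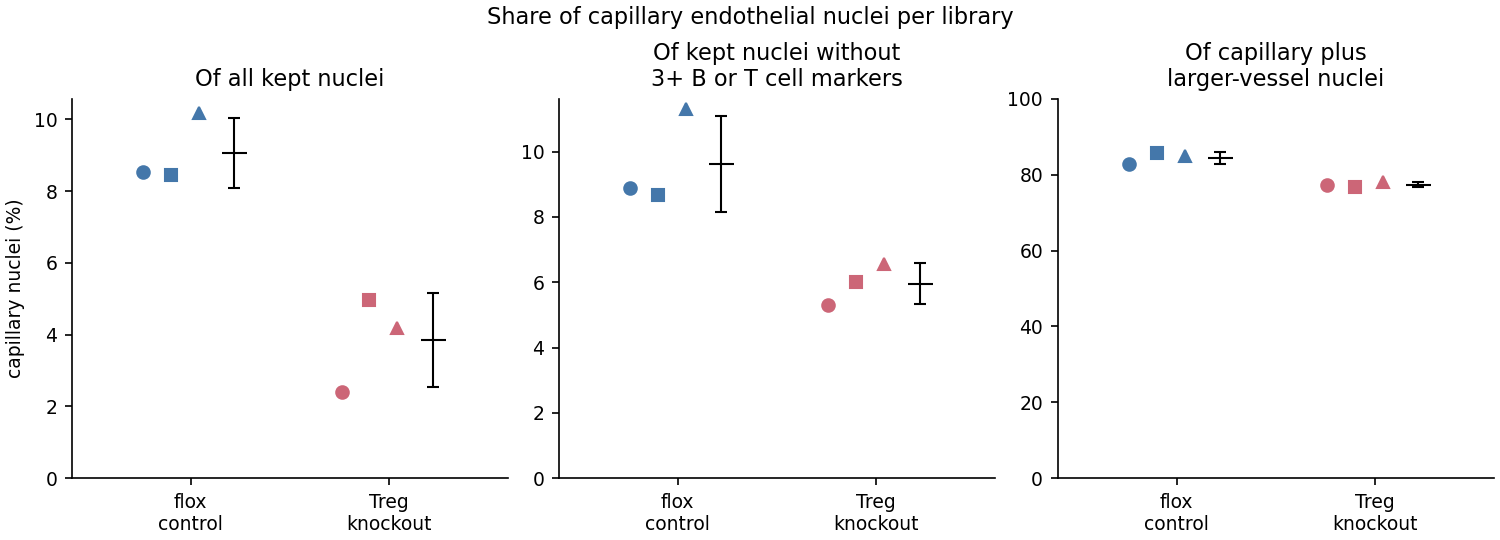
Capillary nuclei per library in percent of all kept nuclei (left), of kept nuclei without 3 or more B or T cell markers (middle) and of capillary plus larger-vessel nuclei (right). In the middle panel nuclei with such markers were taken out of the denominator only, and members with them stayed in the numerator. Points are libraries, with circles, squares and triangles for replicates 1, 2 and 3, and the black marks are the mean and SD of 3. In each panel every flox control library stood above every knockout library.

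The transcriptome of all capillary members showed no gene past the threshold between genotypes. In edgeR's quasi-likelihood test on UMIs summed per library, 0 of 12254 genes (0%) had a Benjamini-Hochberg adjusted p under 0.05, the lowest being 0.105. At an unadjusted p under 0.05, 790 genes (6.45%) were higher and 869 (7.09%) lower in the knockout. DESeq2 called 305 genes on the same sums. Same-numbered libraries of the 2 groups deviated together, and with the replicate number as a block edgeR called 308 genes, 189 higher and 119 lower, of which 207 were also called by DESeq2. Leaving out knockout 2 gave 434 calls.

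Most of the genes called with the block were more abundant outside the gate than in the stricter members. The stricter members were made by removing nuclei with markers of other cells, which by itself lowers genes of those cells there. The shares below therefore cannot show where the calls come from. Of the 189 genes higher with the block, 174 (92.1%) had a higher level outside the gate than in the stricter members, and so did 115 of the 119 lower genes (96.6%), against 53.6% of all genes tested. All 10 B cell markers and 1 of 8 T cell markers tested were among the higher genes, and 3 macrophage, 2 adipocyte and 1 progenitor markers among the lower. The 10 B cell markers were each higher in the knockout in members, with summed levels of 83.2 to 469 CPM in flox controls and 503 to 2673 CPM in knockouts, and so were the 10 T cell markers, with 225 to 236 CPM in flox controls and 281 to 782 CPM in knockouts. Of the 10 adipocyte markers 2 were higher, with 1919.8 to 2091 CPM in flox controls and 755 to 1517 CPM in knockouts. None of these 3 lists' sums overlapped between groups. The progenitor markers summed to 1262 to 1492 CPM in flox controls and 849 to 1137 CPM in knockouts, the macrophage markers to 891 to 1074 CPM in flox controls and 641 to 1584 CPM in knockouts and the mural markers to 149 to 507 CPM in flox controls and 153 to 343 CPM in knockouts. Their part in the gene results was not tested.

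The 8 genes with the smallest p in each direction at a mean of 20 CPM or more did not pass without the block, and all 16 passed with it and in DESeq2. Higher were Gimap1, Samsn1, Itpr3, Nxph1, Ifi203, H2-T23, Mthfd1l and Mdga2. Gimap1, a GTPase of immune cells, was at 24.4, 24.5 and 27.1 against 56.5, 47.6 and 66.5 CPM (log2 fold change 1.15 ± 0.18, SE; edgeR adjusted p = 0.105, 0.0186 with the block), and the groups did not overlap. In the stricter members the log2 fold change of Gimap1 was 0.55 (edgeR adjusted p = 0.645) and that of H2-T23 0.54 (0.685). In all members H2-T23, a non-classical class I molecule, was at 107, 86.3 and 80.5 against 158, 167 and 149 CPM (log2 fold change 0.77 ± 0.15, edgeR adjusted p = 0.131, 0.0327 with the block). Lower were Gpnmb, Ephx2, Adgre1, Lmo4, Sirpa, Tbxas1, Rnf150 and Mest. Ephx2, the soluble epoxide hydrolase, was at 83.1, 91.3 and 80.2 against 21.8, 36.9 and 37.3 CPM (log2 fold change -1.39 ± 0.20, edgeR adjusted p = 0.105, 0.0101 with the block), but at 20.5 ± 5.57 against 10.3 ± 2.48 CPM (SD, n = 3) in the stricter members and 229 ± 32.9 against 159 ± 2.25 CPM outside the gate. Adgre1, the macrophage F4/80 antigen, and Gpnmb, a macrophage glycoprotein, were at 65.5 ± 20.8 against 14.2 ± 3.64 CPM and 54.3 ± 8.17 against 16.8 ± 4.4 CPM in all members. In the stricter members Gpnmb differed by -1.26 (edgeR adjusted p = 0.828). Adgre1, one of the macrophage markers used to remove nuclei, was too low there to be fitted.

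Among the stricter members, 5 of 8934 genes (0.056%) passed, with 331 (3.7%) higher and 318 (3.56%) lower at an unadjusted p under 0.05. Ephb1, Tspan18 and Nav3 fell in the knockout, and Robo2 and Cfd rose. In these nuclei the adipocyte markers summed to 312 to 496 CPM in flox controls and 274 to 311 CPM in knockouts, the B cell markers to 35.1 to 48.9 CPM in flox controls and 48.5 to 132 CPM in knockouts, and the T cell markers to 230.4 to 255 CPM in flox controls and 210.0 to 259 CPM in knockouts. The adipocyte sums did not overlap between groups and the others did, after a removal of nuclei that used these same markers. Their part in the gene results was not tested. With the block the stricter members also had Igkc, the immunoglobulin kappa constant gene of B-lineage cells, higher by 3.94 (edgeR adjusted p = 0.00328). Igkc was 3.46, 5.01 and 4.39 against 47, 16.6 and 150.3 CPM and did not pass without the block (0.475, edgeR).

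Ephb1 (ENSMUSG00000032537, chr9:101922128-102354693 in mm10) was 153, 133 and 141 CPM in flox controls 1 to 3 and 81, 70.6 and 70 CPM in knockouts 1 to 3. Every knockout library was below every flox control, and the log2 fold change was -0.97 ± 0.16 (SE, edgeR adjusted p = 0.0221). Ephb1 was also among the leading capillary genes, and it stood at 1.93 to 7.24 CPM outside the gate and 0 to 7.66 CPM in larger-vessel nuclei. In all members it was 110.0, 96 and 93.1 against 78.4, 49.2 and 37.8 CPM, which passed with the block (edgeR adjusted p = 0.0377). Without knockout 2 or knockout 3 Ephb1 did not pass (edgeR adjusted p = 0.331 and 0.0675).

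Tspan18, a tetraspanin of endothelial cells (ENSMUSG00000027217, chr2:93201760-93334505), was 253, 206 and 228 CPM in flox controls 1 to 3 and 107, 122 and 159 CPM in knockouts 1 to 3, a log2 fold change of -0.84 ± 0.15 (edgeR adjusted p = 0.0373). In all members Tspan18 passed with the block (edgeR adjusted p = 0.0263), while in the stricter members the block ended its call (0.0563, edgeR). Without flox control 3, knockout 1 or knockout 2 Tspan18 did not pass (edgeR adjusted p = 0.0573 to 0.363). The level outside the gate was 110.0 ± 13.4 against 97.1 ± 10.8 CPM. Nav3, a microtubule-binding neuron navigator (ENSMUSG00000020181, chr10:109681259-110456204), was 144, 125 and 154 CPM in flox controls 1 to 3 and 60.1, 66.5 and 92.7 CPM in knockouts 1 to 3, a log2 fold change of -0.97 ± 0.18 (edgeR adjusted p = 0.0373). Both genes had groups that did not overlap, but Nav3 was higher outside the gate, at 481 to 618 CPM, than in any library of the 3 vessel classes. Without flox control 3, knockout 1 or knockout 2 Nav3 did not pass (edgeR adjusted p = 0.0809 to 0.363). It did not pass in DESeq2 on the stricter members (adjusted p = 0.0598), and in all members it did not pass with the block (edgeR adjusted p = 0.053) or in DESeq2 (0.0974).

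Robo2, a receptor for Slit ligands (ENSMUSG00000052516, chr16:73891839-74411825), was 3.46, 4.17 and 2.51 CPM in flox controls 1 to 3 and 20.9, 31.9 and 16.5 CPM in knockouts 1 to 3, a log2 fold change of 2.79 ± 0.46 (edgeR adjusted p = 0.0221). These levels rest on 13 UMIs in the flox controls and 39 in the knockouts, and outside the gate Robo2 was also higher in every knockout, 1.48, 0.683 and 3.51 against 28.9, 4.64 and 15.6 CPM. Without flox control 3, knockout 1 or knockout 2 Robo2 did not pass (edgeR adjusted p = 0.0573 to 0.472). In all members Robo2 passed with the block (edgeR adjusted p = 0.024). Cfd, the complement factor adipsin, which adipocytes secrete (ENSMUSG00000061780, chr10:79890853-79892655), was 39.8, 17.5 and 26.4 CPM in flox controls 1 to 3 and 88.8, 111 and 57.7 CPM in knockouts 1 to 3, a log2 fold change of 1.64 ± 0.28 (edgeR adjusted p = 0.0373), and outside the gate 68.7, 64 and 85.1 against 144, 455 and 254 CPM. Without flox control 2, flox control 3, knockout 1 or knockout 2 Cfd did not pass (edgeR adjusted p = 0.0513 to 0.363). In all members Cfd did not pass with the block (edgeR adjusted p = 0.11) and passed in DESeq2 (0.0158). For both genes the direction was the same inside and outside the gate, and the part of RNA from other nuclei in their change was not tested. Slit3, a ligand of the Robo family, did not pass in this fit: it was 216, 215 and 353 against 559, 442 and 525 CPM (log2 fold change 0.92 ± 0.19, edgeR adjusted p = 0.214). It passed with the block (edgeR adjusted p = 0.0183), in DESeq2 (adjusted p = 0.0077) and without flox control 3 (edgeR adjusted p = 2.46e-05). In all members Slit3 was 844, 919.9 and 1053 against 665, 878 and 862 CPM, and outside the gate 2096 to 2656 CPM, so the direction seen in the stricter members was not seen in all members.

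**Figure D4:**
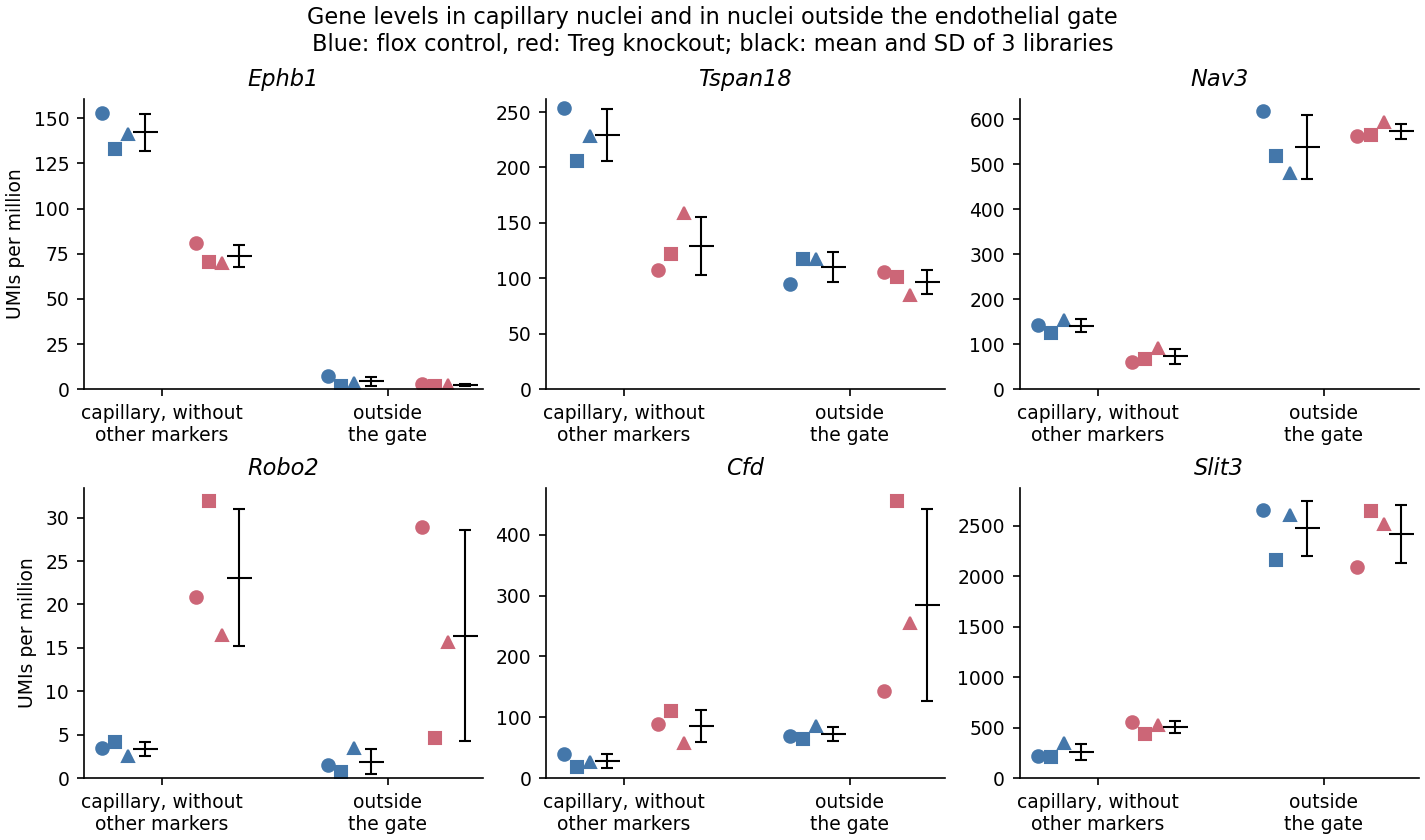
Levels of 6 genes in UMIs per 1000000 in stricter capillary nuclei (left in each panel) and in nuclei outside the endothelial gate (right), with flox control in blue and Treg knockout in red. Points are libraries, with circles, squares and triangles for replicates 1, 2 and 3, and the black marks are the mean and SD of 3. In capillary nuclei Ephb1, Tspan18 and Nav3 were lower in every knockout and Robo2, Cfd and Slit3 higher. Slit3 did not pass the test.

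The next genes of the stricter members, picked by the smallest p, were below the threshold but without overlap between groups. Genes picked by a small p, here and in the lists below, are likely to have groups that do not overlap. The share of all genes without overlap is not given here. Id1, a target of BMP signals, was 175, 207 and 193 against 269, 284 and 321 CPM (log2 fold change 0.59 ± 0.13, edgeR adjusted p = 0.171). Klf2, the shear-responsive transcription factor, was 166, 131 and 112 against 209, 211 and 229 CPM (0.66 ± 0.15, edgeR adjusted p = 0.2), and Rbp7, a capillary retinol-binding protein, 173, 159 and 188 against 274, 234 and 397 CPM (0.77 ± 0.17, edgeR adjusted p = 0.19). Id1 and Rbp7 were at no more than 6.85 and 3.41 CPM outside the gate. Pim3, a kinase, and Stc1, a secreted glycoprotein, were likewise higher without passing, and Cep192, Kirrel3, Egfem1, Frmd4b and Igf1 lower. In all members Egfem1 and Igf1 passed with the block (edgeR adjusted p = 0.0312 and 0.0125, 0.134 and 0.146 without it). Kirrel3 of the venous side was 879.9, 593 and 729 against 551, 459.9 and 453 CPM (-0.61 ± 0.14, edgeR adjusted p = 0.2).

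Gene lists were read against the shares over all genes. Of the 26 interferon-response genes tested in the stricter members, 24 were higher and 2 lower in the knockout with a median log2 fold change of 0.30, while the median over all genes was 0.01. None passed the adjusted threshold. At an unadjusted p under 0.05, 9 were higher (Stat2, Irf7, Ifi44, Gbp3, Gbp4, Gbp5, Gbp7, Igtp and Ifi203) and 0 lower, against 3.7% higher among all genes. Stat2, a signal transducer of type I interferon, was 83.1, 88.5 and 94.7 against 138, 147 and 117 CPM (0.58 ± 0.15 on the log2 scale), Gbp3, a guanylate-binding protein, 34.6, 36.7 and 23.8 against 54.9, 60.9 and 55.6 CPM (0.86 ± 0.23), and Ifi203, a DNA-binding interferon-induced protein, 122, 140.3 and 121 against 188, 208 and 165 CPM (0.54 ± 0.14). None of the 3 overlapped between groups. In all members 26 of 29 genes of the list were higher with a median of 0.42, and Ifi203 passed with the block. The interferon list's highest member, the GTPase Iigp1, was 304 ± 101 against 422 ± 88.4 CPM (SD, n = 3) in the stricter members, with overlapping groups.

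Antigen presentation genes stood the same way. In the stricter members 19 of 19 were higher with a median of 0.28, with 4 at an unadjusted p under 0.05 (H2-D1, H2-T23, Tapbp and Nlrc5, against 3.7% of all genes) and none past the adjusted threshold. H2-D1, a classical class I molecule, was 889, 789.9 and 579.8 against 941, 907 and 990.5 CPM (0.32 ± 0.13), and Tapbp, the peptide-loading chaperone tapasin, 143, 130.3 and 126 against 180.3, 179 and 152 CPM (0.34 ± 0.14). The most highly counted gene of the list, H2-K1, overlapped between groups, 1482, 1187 and 832 against 1351, 1441 and 1363 CPM. In all members 21 of 21 were higher with a median of 0.69, and H2-T23, H2-DMb1, Cd74 and Ciita passed with the block, of which the last 3 belong to the class II pathway of B cells and macrophages. Cd74 was 159.7 ± 55.3 against 390.1 ± 241 CPM (SD, n = 3) in all members and 59.8 ± 26.2 against 86.4 ± 17.4 CPM in the stricter members. The B cell marker sums overlapped between the groups in the stricter members and not in all members, but the stricter members were made by removing nuclei with these markers. Igkc, which that removal did not use, was higher in every knockout of the stricter members, as given above. The part of B cell RNA in these lists was not tested.

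**Figure D5:**
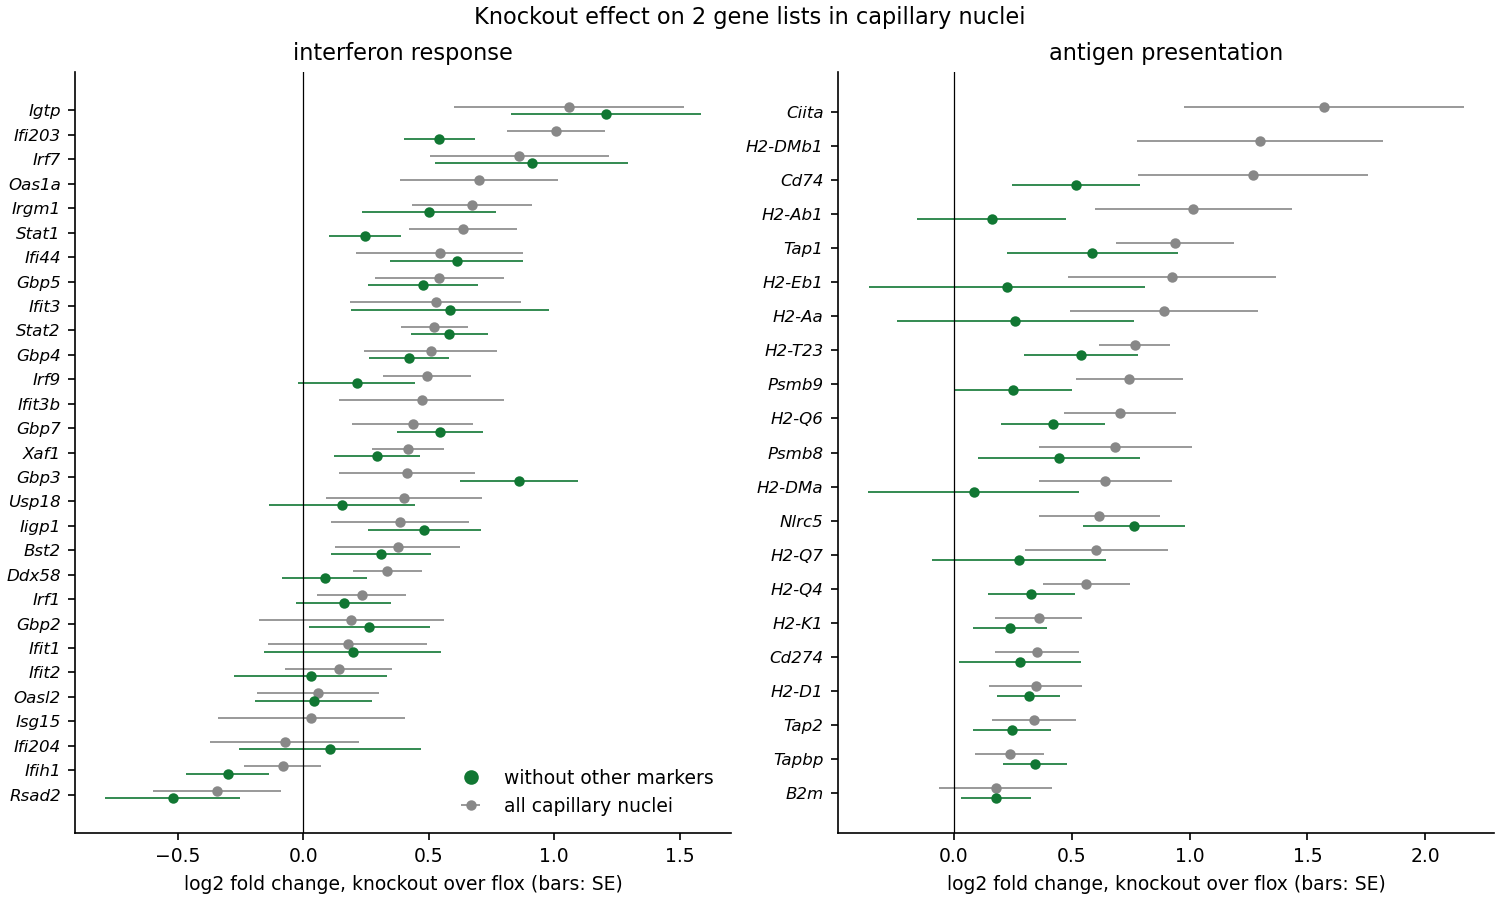
Log2 fold change of knockout over flox control with its SE for each gene of the interferon response list (left) and the antigen presentation list (right), in all capillary nuclei (grey) and in the stricter ones (green). Most points lie right of 0, and the grey medians, 0.42 and 0.69, exceed the green ones, 0.30 and 0.28.

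Lipid handling genes went both ways. Of 25 tested in the stricter members 15 were higher and 10 lower, with a median of 0.03 and none past the adjusted threshold. Cd36 was 8321, 8233 and 7815 against 7528, 8418 and 10269 CPM (0.09 ± 0.12) and Fabp4 7674, 5674 and 5039 against 7580.5, 6373 and 6272 CPM (0.13 ± 0.14), both with overlapping groups. At an unadjusted p under 0.05, Aqp1 and Angptl4, a lipase inhibitor, were higher, at 561 ± 101 against 718 ± 97 CPM and 372 ± 40.1 against 469.7 ± 60.8 CPM, and Slc27a1 and Acsl1, which bring fatty acids into metabolism, lower, at 58 ± 24.4 against 31.3 ± 6.99 CPM and 101 ± 13.8 against 75.9 ± 9.81 CPM. Among all genes of the stricter members 3.7% were higher and 3.56% lower at that level. In all members Lpl, Slc27a1, Vldlr, Lrp1 and Abca1 were lower at this level and none higher, with 18 of 29 genes of the list lower (7.09% of all genes were lower at that level), and Lrp1 passed with the block. No gene of the list passed with the block in the stricter members. Fatty acid oxidation genes stood 10 higher and 7 lower, with Hadha at 114 ± 6.04 against 107 ± 2.25 CPM, and glycolysis genes 4 and 4, with Pfkfb3 at 112 ± 19.5 against 128 ± 14 CPM.

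No gene of the vessel signalling lists passed the adjusted threshold in the unpaired fits, and in all members Svep1, Bmper and Cgnl1 passed as lower with the block. None of them passed with the block in the stricter members, and Bmper is one of the progenitor markers used to remove nuclei. In the stricter members the VEGF list had 2 of 11 genes higher and 9 lower with a median of -0.18. Nrp1 was 1173, 1121 and 1296 against 1259, 1162 and 1188 CPM (-0.01 ± 0.11), and Vegfc was lower at an unadjusted p under 0.05, at 123 ± 35.1 against 90 ± 11.4 CPM. Notch genes stood 10 higher and 5 lower with a median of 0.13, with Maml2, a Notch co-activator, at 1177 ± 67 against 1108 ± 83.9 CPM. Of the 22 BMP and TGF-beta genes 12 were higher and 10 lower, with the ligand Bmp6 at 1175 ± 239.8 against 1115 ± 126 CPM. Acvrl1, a BMP receptor of endothelium, and Id1 were higher and the transducer Smad1 and the co-receptor Tgfbr3 lower at an unadjusted p under 0.05, with Acvrl1 at 63.2 ± 2.44 against 100.1 ± 28.3 CPM and Smad1 at 406 ± 21.4 against 322 ± 36.5 CPM, both without overlap, and Tgfbr3 at 1069 ± 69.6 against 889.7 ± 173 CPM with overlap. Of the angiopoietin and TIE genes, Angpt2, which loosens vessels, was at 40.7 ± 9.59 against 63.2 ± 15.5 CPM and Svep1 at 35.6 ± 15.7 against 10.8 ± 8.4 CPM, each with overlapping groups, and the list's highest member Foxo1 at 367 ± 33.1 against 313 ± 19 CPM. Endothelial transcription factors had 9 of 27 higher, with Tcf4 at 3540.5 ± 137 against 3287 ± 129.8 CPM, and Sox17 and Klf2 higher and Hhex lower at an unadjusted p under 0.05. Of all genes, 3.7% were higher and 3.56% lower at that level, and these shares also stand beside the VEGF, BMP and TGF-beta genes above. Of the 19 junction genes 5 were higher and 14 lower with a median of -0.08. At that level 1 was higher (Jam3) and 4 lower (Jup, Magi1, Afdn and Cgnl1), against 3.7% higher and 3.56% lower among all genes. Magi1, a scaffold of cell junctions, was 4021, 4318 and 4247 against 3452, 3690.1 and 3719 CPM (-0.23 ± 0.11), and Afdn, the junction protein afadin, 1019, 1073 and 982 against 949, 889 and 749.6 CPM (-0.27 ± 0.11), both without overlap between groups. The highest member, Cdh13, was at 4320.3 ± 643 against 4273 ± 89 CPM.

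In the permeability list, 4 of 13 genes were higher at an unadjusted p under 0.05 and none lower, against 3.7% higher and 3.56% lower among all genes. Plvap, the diaphragm protein of fenestrated and venous endothelium, was 46.7, 50.1 and 55.2 against 70.6, 91.4 and 86.5 CPM (0.70 ± 0.19), without overlap, and the others were the transporters Slc1a1, Slc3a2 and Abcg2, the last at 413 ± 109 against 582 ± 45.5 CPM. Of 12 leukocyte adhesion genes 9 were higher, 4 of them at that level (3.7% of all genes): Vcam1, Cxcl12, Ccl2 and Itga4. In all members Itga4 of this list, Stab2 of the permeability list and Rel of the NF-kB list passed as higher with the block, and Grb14 of the insulin list as lower. None of them passed with the block in the stricter members. In the stricter members Vcam1, an adhesion ligand of leukocyte integrins, was 30.3, 29.2 and 19.5 against 31.4, 44.3 and 47.4 CPM (0.67 ± 0.27) and the chemokine Cxcl12 205, 226 and 246 against 324, 256 and 290.4 CPM (0.33 ± 0.13). In the insulin list Insr, the insulin receptor, was 243, 366 and 282 against 397, 419.7 and 502 CPM (0.55 ± 0.15) and Akt1 was also higher at an unadjusted p under 0.05, Pik3r3 lower, with the binding protein Igfbp7 at 621 ± 90.5 against 746 ± 62.5 CPM. Thus 2 of its 17 genes were higher and 1 lower at that level, against 3.7% and 3.56% of all genes. Adora2a was 90.8, 75.1 and 105 against 105, 83.1 and 92.7 CPM (-0.00 ± 0.18) and Slc28a2 410.1, 337 and 378 against 410.3, 359 and 313 CPM (-0.08 ± 0.13), with overlapping groups. Among the axon guidance receptors 9 of 19 were higher, Robo2 being the one that passed, and Sema6a was at 1714 ± 202 against 1465 ± 342 CPM. The inhibitory G protein list had 4 of 10 higher, with S1pr1 at 415 ± 66.3 against 475 ± 115 CPM.

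The other lists gave no gene past the threshold in the stricter members. Higher were 9 of 21 basement membrane genes with Itga1 at 1138 ± 55.8 against 1055 ± 50.6 CPM, 11 of 16 vascular tone genes with Npr3 at 380.2 ± 83.1 against 387 ± 20.7 CPM, 11 of 16 inflammatory NF-kB targets with Nfkb1 at 266 ± 3.52 against 269.8 ± 25.5 CPM and 5 of 11 immediate early genes with Btg2 at 239.7 ± 16.9 against 229 ± 38.1 CPM. At an unadjusted p under 0.05, Lama3, a laminin chain of the arterial side, was higher at 57.8 ± 13.1 against 97.8 ± 15.4 CPM, as were Ramp2, a receptor activity-modifying protein for adrenomedullin, at 182 ± 10.4 against 259.7 ± 25.7 CPM and Csf1, the macrophage growth factor, at 14.5 ± 4.67 against 30 ± 4.09 CPM, each without overlap. Itga3 of the basement membrane list and Jun of the immediate early list were also higher at that level. No gene of these lists was lower, and among all genes 3.7% were higher and 3.56% lower.

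Shares of members in 7 states were compared at 1000 UMIs a nucleus, a state being 2 or more detected genes of its list. None of the 7 differed past the threshold (Benjamini-Hochberg adjusted exact permutation p of 0.7 or 0.9). Arterial-leaning members were 44.7 ± 4.95% in flox controls and 44.1 ± 3.49% in knockouts (SD, n = 3), and venous-leaning members 19.2 ± 1.12% and 21.7 ± 2.81%. Much of both shares came from Mecom and Tshz2, and without these genes they were 20.9% against 20.1% and 4.09% against 5.10%. Interferon-responding members were 21.5%, 17.9% and 11.4% in flox controls 1 to 3 and 23.6%, 26.5% and 15.9% in knockouts 1 to 3 (exact permutation p = 0.3 before adjustment), against 1.32% to 6.24% of nuclei outside the gate. The groups overlapped. Sprouting members were 22.6% against 21.4%, and dividing members 0.93% against 0.753%, which lay within the 0.648% to 1.45% of nuclei outside the gate. The immediate early state was 5.65 ± 0.381% against 3.69 ± 1.18% without overlap (exact permutation p = 0.1, 0.7 adjusted), but 4.32% against 4.12% in the stricter members. Without thinning the arterial-leaning, venous-leaning and interferon-responding shares were 69.3% against 68.0%, 44.5% against 41.8% and 41.8% against 47.6%. The lymph node venule state was 0.119% against 0.0817%, and Chst4, its sulfotransferase, had no UMI in members.

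The knockout effect was also compared between capillary and larger-vessel nuclei in 1 edgeR model with library as a term. The effects differed for 1 of 10079 genes (0.00992%), Nkain2, with a log2 difference of 4.18 ± 0.59 (SE, edgeR adjusted p = 0.0299). Nkain2 was 53.6, 50.5 and 42.2 CPM in flox controls 1 to 3 and 7.71, 68.9 and 51.6 CPM in knockouts 1 to 3, in capillary nuclei. In larger-vessel nuclei it was 84.7, 66.3 and 48.5 CPM in flox controls 1 to 3 and 0, 8.74 and 0 CPM in knockouts 1 to 3. All 3 knockouts lay below the flox controls in the larger-vessel class, while in the capillary class only knockout 1 did. The larger-vessel counts of Nkain2 rest on 121 UMIs in flox controls and 4 in knockouts. Outside the gate Nkain2 was 162 ± 30.9 against 116 ± 15.6 CPM, and in the stricter members 9.68 ± 6.08 against 3.87 ± 2.66 CPM (SD, n = 3). Without knockout 1 Nkain2 did not pass, and after thinning no gene passed with a positive difference. The next genes by p were Gprin3, Sema3a, Tshr, Nr5a2 and Cpe, with edgeR adjusted p of 0.118 to 0.184. Nr5a2, a nuclear receptor, differed by -3.24, and by -3.99 with an adjusted p of 0.0189 when nuclei with other markers were left out of both classes.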

How the data were processed

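Nuclei from subcutaneous fat of 6 mice were sorted by DAPI and sequenced with a 3' droplet assay, per the labels' protocols. The deposited values are UMI counts for 32285 features per barcode, counted by the authors in Cell Ranger 7.1 per the submitters' processing notes, and mm10 and GRCh38 are both listed there. Reads over overlapping or near-identical genes may be split or lost in such counts. From these counts, capillary nuclei were chosen by the rule given with the results, and their UMIs were summed per library, 778445 to 3578411 each. The members, gene lists and tests were chosen with earlier results of these data known.

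Sums were compared with edgeR 4.0.16 in R 4.3.3 (TMM, filterByExpr by group, robust quasi-likelihood test, Benjamini-Hochberg over all genes tested), with DESeq2 1.42.0 as an alternative. CPM values are UMIs per 1000000 of the class, and fold changes are knockout over flox control. Shares and states were compared by exact two-sided permutation over libraries, whose smallest p is 0.1, and shares have exact Clopper-Pearson 95% intervals, which cover counting error only. Thinning drew 1000 UMIs from each nucleus and left out 11 to 81 shallower members a library. Scrublet scores (scanpy 1.11.5, Python 3.11.15) were used to mark the highest 0.8% per 1000 barcodes, and doublets were otherwise kept. Gene positions are from the GENCODE annotation of mm10. The scripts were tested on simulated data. Aldoa, Ccl21a and Mx1 were not matched by symbol.

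Named genes were those past the threshold, filled to 8 in each direction by the smallest p at 20 CPM or more in the higher group, without the 24 genes of the rule, plus list members that passed and the highest member of each list. The same rule was applied to the stricter members. In all members, same-numbered libraries deviated together, though weakly (correlations of 0.150, 0.142 and 0.212 over 12254 genes between flox control and knockout 1, 2 and 3). Libraries with unlike numbers gave -0.237 to 0.0932, the highest for flox control 1 with knockout 2. Deviations were taken from the mean of each group of 3, so these correlations are not independent of each other. Results with the replicate number as a block are given beside the named genes whose call they change. The labels do not say what the numbers share.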

Additional observations from a re-analysis of the deposited data

Results flagged for a closer look

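The knockout effect on Nkain2 differed between capillary and larger-vessel nuclei by 4.18 ± 0.59 on the log2 scale (SE, edgeR's quasi-likelihood test, adjusted p = 0.0299 over 10079 genes). This gene was singled out because the difference between the classes was itself tested. The larger-vessel libraries held 4 Nkain2 UMIs in the 3 knockouts and 121 in the 3 flox controls, and the call was lost without knockout 1. After thinning to 1000 UMIs none of the 3 genes called had a positive difference, the direction of Nkain2. Nkain2 was higher outside the endothelial gate than in either class, and it was not among the genes fitted once nuclei with other markers were left out. The part of RNA from other nuclei in this difference was not tested.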

How the results depend on the processing

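The capillary share of kept nuclei was lower in the knockout under each of its alternatives (differences of -5.76 to -4.48 percentage points with 1 library left out), and the replicate block, an exact permutation of signs over 3 pairs, gave a mean difference of -5.20 (p = 0.25, the smallest it allows). The share of gated nuclei differed by -11.8 to -3.09 points with 1 library left out and by -6.89 with the replicate block (exact permutation p = 0.5). For all members edgeR called 0 genes in the unpaired fit, with 1659 at an unadjusted p under 0.05. The counts of calls were 305 in DESeq2, 280 with no filter on low counts, 308 with the replicate block, 7 after thinning, 5 without nuclei with other markers, and 0 to 434 with 1 library left out. In the stricter members library totals alone gave 2 calls, and 1 library left out gave 1 to 19. There the same-numbered libraries did not deviate together (correlations of 0.0074, 0.0045 and -0.026), and the replicate block gave 6 calls, 4 of them among the 5 unpaired ones and the others Igkc and Slit3. These alternatives for the stricter members were chosen after the data were seen. Nav3 did not pass in DESeq2, and Tspan18 did not pass with the replicate block. For the difference between vessel classes the counts were 88 with no filter, 3 after thinning, 6 without nuclei with other markers (also chosen after the data were seen) and 0 to 13 with 1 library left out. State differences in percentage points changed sign for the venous-leaning state without thinning (-2.73) and with 1 gene or more (-1.47), for the dividing state without thinning (0.0624) and for the lymph node venule state without nuclei with other markers (0.15). With 1 library left out they ran from -3.48 to 1.32 for arterial-leaning, from 1.27 to 4.01 for venous-leaning, from -4.78 to 0.961 for sprouting, from -0.414 to 0.0888 for dividing, from 2.31 to 8.13 for interferon-responding, from -0.119 to 0.00327 for lymph node venule and from -2.63 to -1.54 for immediate early members. Among single genes, with 1 library left out of all or of the stricter members, log2 fold changes ran from -0.20 (stricter, without knockout 2) to 2.80 for Mdga2, from -1.34 to 0.0954 (stricter, without flox control 1) for Sirpa, and from -0.0515 (all, without knockout 2) to 0.58 for Gpsm1. The causes of these changes were not tested. The 125 lymphatic and 855 larger-vessel nuclei limit the precision of both classes.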
